A study of Mus musculus with 12 samples.

Results

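The GTPases of immunity-associated proteins, or Gimap family, were followed in fetal liver progenitors of the mouse that carried or lacked the paired immunoglobulin-like receptor (PIR), in knockout (KO) and wild-type (wt) cells. The members are the 8 rows of the deposited table with the symbols Gimap1, Gimap3, Gimap4, Gimap5, Gimap6, Gimap7, Gimap8 and Gimap9, of 23420 genes in all. The family was chosen by the measured values of Gimap4, which is higher in PIR+ KO than in PIR+ wt libraries, so the values of that contrast are a description here and carry no test. The other members were chosen because they lie beside Gimap4 in 1 cluster, and they share those libraries.

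The 12 libraries fall into 4 groups of 3: PIR+ KO, PIR+ wt, PIR- KO and PIR- wt. All were made from lineage-negative, c-Kit+ fetal liver cells sorted by flow cytometry, 100 cells to a tube, with ERCC spike-in RNA added and with a molecular barcode on the oligo-dT primer. The labels name neither the gene that was knocked out nor the allele, so the targeted gene was not checked, and they do not say whether libraries of a group are separate animals. P-values therefore measure the spread between these samples, which may be technical. The source labels give E12.5 or E14.5 as the stage, and each group holds libraries of both stages, while the series title gives E12.5 alone. The markers field gives all libraries as IL7Ra+ and contradicts the PIR sign of the title in 6 of the 12, and the labelled stage follows the markers field. Groups were taken from the titles: Pira1, Pira2 and Lilrb3, the genes that encode PIR, were listed at 0 in all 6 PIR- libraries and were above 0 in all 6 PIR+ libraries. Il7r was detected in every library, at 9.7 to 24.4, and Kit at 18.6 to 56.3.

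Values are normalized molecule counts as the authors deposited them. One molecule was worth 0.49 to 0.775 of this unit, the values of a library summed to 155374 to 284648, and between 9881 and 11200 genes were above 0. Hba-a1, an adult globin gene, exceeded 100 in 5 libraries (PIR+ KO replicate 1, PIR+ wt replicate 3, PIR- KO replicate 1 and PIR- wt replicates 2 and 3). Hbb-y, an embryonic globin gene, was 773.1 in PIR+ KO replicate 1 and at most 2.7 in every other library.

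Gimap proteins are small GTPases of vertebrates that sit on intracellular membranes or in the cytosol and are best known from lymphocytes, where several of them are needed for cell survival. Gimap5 is required for the survival of peripheral T cells in mice and rats, and Gimap1 for mature T and B cells in mice. In the fetal liver, the lineage-negative c-Kit+ compartment holds stem cells, multipotent progenitors and the first lymphoid progenitors, including cells that seed the thymus.

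The 8 genes lie within 123.6 kb of mouse chromosome 6 (GRCm38, GENCODE M21), with Gimap8 at one end (48647234 to 48660875, plus strand) and Gimap3 at the other (48764464 to 48770851, minus strand). Between them stand Gimap9 (48676129 to 48679114), Gimap4 (48684549 to 48692060), Gimap6 (48701582 to 48708225), Gimap7 (48718621 to 48724636), Gimap1 (48739054 to 48743795) and Gimap5 (48746197 to 48754210). Gimap6 and Gimap3 are read from the minus strand and the other 6 from the plus strand. Gimap1 is overlapped by the antisense gene Gimap1os, and Gimap7, Gimap1 and Gimap5 by the read-through gene Gm28053. Neither of these is a row of the table, and whether counting used the strand is not given in the sources used here, so reads of Gimap1 and Gimap1os cannot be told apart. Gimap3 and Gimap5 are close paralogs, and the assignment of reads between them is uncertain.

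The stretches upstream of 4 members are shown because their messages set the pattern described here: Gimap4 and Gimap8 had the largest differences between PIR+ KO and PIR+ wt libraries, Gimap6 the clearest difference between PIR+ and PIR- wt libraries, and Gimap1 had the smallest PIR+ over PIR- fold changes of the 5 members that reached the expression filter. Each run ends at the base before the RefSeq start, or, for Gimap4, before the earlier GENCODE start, and is written on the gene's own strand, 5′ to 3′, from RefSeq (GRCm38.p6). That of Gimap4 is chr6:48684328-48684548, that of Gimap8 chr6:48646984-48647233, that of Gimap6 chr6:48708245-48708494 on the minus strand, and that of Gimap1 chr6:48738797-48739046. Capitals mark matches to 3 motifs bound by transcription factor families of lymphoid and progenitor cells, searched on both strands. The core letters bound by RUNX proteins are TGTGGT. Those searched for the ETS family, to which PU.1 belongs, are AGGAAG. The E-box of the E proteins was written as CAGNTG, where N is any base.
Gimap4: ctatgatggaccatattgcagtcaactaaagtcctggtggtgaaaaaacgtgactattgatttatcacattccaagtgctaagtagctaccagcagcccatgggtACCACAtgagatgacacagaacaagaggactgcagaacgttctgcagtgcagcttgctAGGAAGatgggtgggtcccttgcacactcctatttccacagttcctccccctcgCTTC
Gimap8: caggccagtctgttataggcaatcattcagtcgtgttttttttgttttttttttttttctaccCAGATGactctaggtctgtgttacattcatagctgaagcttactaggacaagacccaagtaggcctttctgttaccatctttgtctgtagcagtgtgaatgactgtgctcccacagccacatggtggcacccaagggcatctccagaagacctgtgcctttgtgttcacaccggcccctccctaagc
Gimap6: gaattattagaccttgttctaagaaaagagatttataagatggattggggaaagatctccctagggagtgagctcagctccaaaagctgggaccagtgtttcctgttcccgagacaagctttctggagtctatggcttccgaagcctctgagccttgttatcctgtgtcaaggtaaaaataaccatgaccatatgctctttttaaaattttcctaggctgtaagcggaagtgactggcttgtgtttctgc
Gimap1: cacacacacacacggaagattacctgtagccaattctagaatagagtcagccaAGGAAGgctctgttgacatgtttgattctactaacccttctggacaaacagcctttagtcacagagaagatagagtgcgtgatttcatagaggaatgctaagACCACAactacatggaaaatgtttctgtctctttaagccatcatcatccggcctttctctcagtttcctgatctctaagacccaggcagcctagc

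In the 250 bases upstream of their RefSeq starts, 3 of the 8 members held the RUNX letters, namely Gimap4 (first base at -145), Gimap1 (-95) and Gimap7 (-79). Over 32851 mouse promoter windows of the same length, 14.0% held them. The ETS letters stood in 7 of the 8 members, in 1 of 2 RefSeq starts for Gimap8, against 29.5% of all windows. Gimap4 held them at -87 and again at -33, where the match crosses the GENCODE start, so that its last letters fall outside the printed run. E-box letters were found in Gimap5, Gimap7, Gimap8 and Gimap9, 4 of the 8, against 44.8% of all windows. The window of Gimap6 held none of the 3 motifs. A match is a run of letters and no evidence of a bound factor. 

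Gimap4, a GTPase linked to the pace of T-cell death in mice, stood apart in PIR+ KO cells. It was 58.2, 52.4 and 66.2 in the PIR+ KO libraries, against 19.7, 18.4 and 10.8 in the PIR+ wt libraries. It was 4.8, 11 and 8.8 in the PIR- KO libraries and 7.4, 8.5 and 7.0 in the PIR- wt libraries. All 3 PIR+ KO libraries lay above every other library. The Gimap4 mean of PIR+ wt libraries came next, but PIR+ wt replicate 3, at 10.8, lay just below PIR- KO replicate 2, at 11. PIR- KO and PIR- wt libraries overlapped for Gimap4. Its means were 58.9 ± 6.93 in PIR+ KO, 16.3 ± 4.81 in PIR+ wt, 8.20 ± 3.14 in PIR- KO and 7.63 ± 0.777 in PIR- wt libraries (SD, n = 3 each). In molecules, this corresponds to 87.1 to 107 in a PIR+ KO library, 15.9 to 31.1 in a PIR+ wt library and 9.0 to 19.1 in a PIR- library. By labelled stage, Gimap4 at E12.5 was 66.2 in 1 PIR+ KO library and 18.4 to 19.7 in 2 PIR+ wt libraries. At E14.5 it was 52.4 to 58.2 in 2 PIR+ KO libraries and 10.8 in 1 PIR+ wt library. Since the PIR+ KO and PIR+ wt libraries do not overlap, no split by stage could close the gap, so these values do not check the stage.

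**Figure D1:**
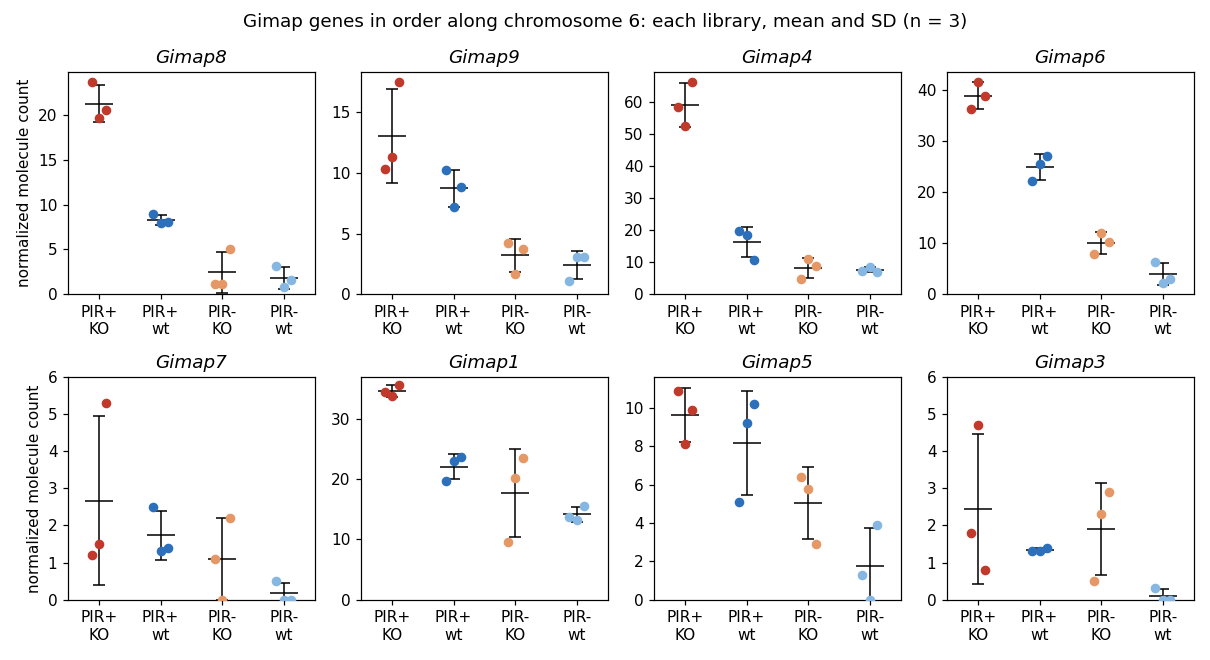
Normalized molecule count of each Gimap gene in each library, in panels that follow the order of the genes along chromosome 6, with the mean (horizontal bar) and SD (whiskers) of the 3 libraries of each group, and with an own vertical axis per panel. Gimap4 is at 52.4 to 66.2 in PIR+ KO libraries and at 10.8 to 19.7 in PIR+ wt libraries, and Gimap3 and Gimap7 stay under 6 in every library.

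Gimap8, whose protein is the largest of the family because it repeats the GTPase domain, had the same order of group means at a lower level. Its values were 23.6, 19.6 and 20.5 in PIR+ KO libraries, against 8.9, 7.9 and 8.1 in PIR+ wt libraries. In PIR- KO libraries it was 1.1, 1.2 and 5.1, and in PIR- wt libraries 3.2, 0.8 and 1.6. The PIR+ KO values were again the top 3, and it came to 2.1 to 6.9 molecules in a PIR- KO library and 1.0 to 6.0 in a PIR- wt library.

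Gimap6, a partner of the autophagy proteins of the GABARAP family, was spread more evenly between the PIR+ groups. It was 36.4, 41.6 and 38.8 in PIR+ KO libraries and 22.2, 25.6 and 27.1 in PIR+ wt libraries. In PIR- cells it was 7.9, 12.1 and 10.3 in KO libraries, against 6.4, 2.3 and 3.1 in wt libraries. None of the 4 groups overlapped with its neighbour, which held for no other member.

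Gimap1 was detected at 9.5 or more in every library. Its values were 34.5, 33.8 and 35.7 in PIR+ KO libraries and 19.7, 23.0 and 23.7 in PIR+ wt libraries. The PIR- KO libraries spread from 9.5 through 20.2 to 23.5 and so overlapped both PIR+ wt and PIR- wt libraries, which were at 13.8, 13.2 and 15.5.

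Gimap9, a small member with few studied functions, was 10.3, 11.3 and 17.5 in PIR+ KO libraries and 10.2, 7.2 and 8.8 in PIR+ wt libraries. In PIR- libraries it was 1.7 to 4.2 in KO and 1.1 to 3.1 in wt. The PIR+ groups nearly touched, at 10.3 in KO and 10.2 in wt, and both lay above all PIR- libraries.

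Gimap5, the survival GTPase of the lysosome, was 10.9, 8.1 and 9.9 in PIR+ KO libraries and 5.1, 9.2 and 10.2 in PIR+ wt libraries, which overlapped. It was 6.4, 5.8 and 2.9 in PIR- KO libraries and 1.3, 0 and 3.9 in PIR- wt libraries. Gimap3, its paralog, and Gimap7, which can stimulate GTP hydrolysis by other members, stood near the limit of detection. Gimap3 was 0.8 to 4.7 in PIR+ KO, 1.3 to 1.4 in PIR+ wt, 0.5 to 2.9 in PIR- KO and 0 to 0.3 in PIR- wt libraries. Gimap7 was 1.2 to 5.3 in PIR+ KO, 1.3 to 2.5 in PIR+ wt, 0 to 2.2 in PIR- KO and 0 to 0.5 in PIR- wt libraries.

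Summed over the 8 members, the family came to 173.0 to 194.7 in PIR+ KO, 89.6 to 93.9 in PIR+ wt, 35.5 to 59.4 in PIR- KO and 27.9 to 34.2 in PIR- wt libraries. Without Gimap4 the sums were 118.7 to 128.5 in PIR+ KO, 69.9 to 80.7 in PIR+ wt, 30.7 to 50.6 in PIR- KO and 19.4 to 27.2 in PIR- wt libraries. The same order of groups therefore stood with and without the gene that led to the choice of the family.

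The make-up of the family differed between the groups as well as its sum. Gimap4 made up 32.4% ± 1.91 of the summed values in PIR+ KO and 17.8% ± 5.33 in PIR+ wt libraries, and 16.2% ± 3.58 in PIR- KO and 24.2% ± 5.44 in PIR- wt libraries (SD, n = 3 each). The lowest PIR+ KO share, 30.3%, was above the highest PIR+ wt share of 22.0%, while the highest PIR- wt share was 30.5%. Gimap1 made up 19.1% ± 0.684 in PIR+ KO, 24.1% ± 1.98 in PIR+ wt, 34.5% ± 6.81 in PIR- KO and 44.4% ± 3.45 in PIR- wt libraries, so its share was largest in PIR- wt libraries, where the family was lowest. Gimap6 made up 21.5% ± 2.21 in PIR+ KO, 27.2% ± 2.42 in PIR+ wt, 20.6% ± 2.85 in PIR- KO and 12% ± 5.89 in PIR- wt libraries. These shares compare the libraries with each other. They do not rank the genes, whose lengths were not taken into account.

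**Figure D2:**
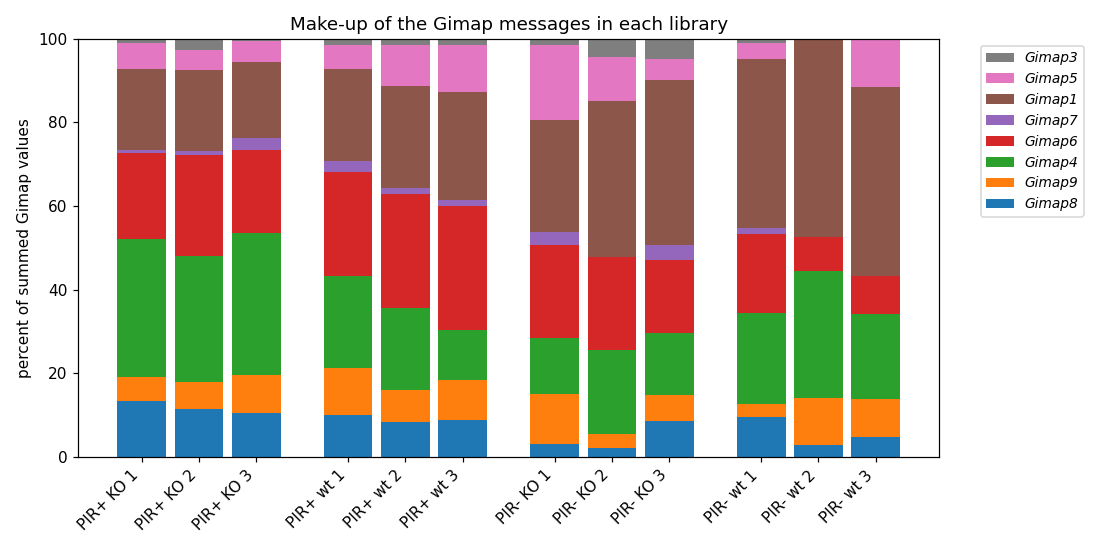
Percent of the summed Gimap values contributed by each member (vertical axis, stacked to 100) in each of the 12 libraries (horizontal axis), stacked from Gimap8 at the bottom to Gimap3 at the top in the order of the genes along the chromosome. The Gimap4 segment is 30.3% to 34.0% in PIR+ KO libraries and 11.8% to 22.0% in PIR+ wt libraries, and the Gimap1 segment is 40.6% to 47.3% in PIR- wt libraries.

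Ratios between members do not depend on how a library was scaled. Gimap4 over Gimap1 was 1.55 to 1.85 in PIR+ KO and 0.456 to 1.0 in PIR+ wt libraries, and 0.375 to 0.545 in PIR- KO and 0.452 to 0.644 in PIR- wt libraries. Gimap4 over Gimap6 was 1.26 to 1.71 in PIR+ KO, 0.399 to 0.887 in PIR+ wt, 0.608 to 0.909 in PIR- KO and 1.16 to 3.70 in PIR- wt libraries. Gimap1 over Gimap6 was 0.813 to 0.948 in PIR+ KO and 0.875 to 0.898 in PIR+ wt libraries, against 1.2 to 2.28 in PIR- KO and 2.16 to 5.74 in PIR- wt libraries. Gimap1 and Gimap6 thus kept nearly the same proportion in all 6 PIR+ libraries, and Gimap4 stood higher against either of them in PIR+ KO than in PIR+ wt libraries. Against Gimap6, its highest ratio, 3.70, was in a PIR- wt library.

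Fold changes were fitted with limma on log2(value + 1) over all 12 libraries, for the 4542 genes that reached 10 in at least 3 libraries, and a gene was called at a Benjamini-Hochberg adjusted p under 0.05. Of the members, 5 entered this fit (Gimap1, Gimap4, Gimap6, Gimap8 and Gimap9). Gimap8 entered only through its PIR+ KO libraries and Gimap9 only through PIR+ libraries. Gimap4 and Gimap6 would not have reached the filter from PIR- libraries alone. Gimap3, Gimap5 and Gimap7 did not reach the filter, and their values come from a fit with no filter over the 14177 genes above 0. Fold changes are log2 of the value plus 1 and understate the change of low members. In these bulk libraries, fewer cells with a message and less message per cell cannot be told apart.

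The contrast that chose the family, KO over wt in PIR+ cells, is given as a description. Gimap4 had a log2 fold change of 1.83 ± 0.28 (SE), a ratio of means of 3.62. Gimap8 followed with 1.25 ± 0.40, a ratio of 2.56. Gimap1 (0.63 ± 0.26) and Gimap6 (0.62 ± 0.28) each differed by a ratio of about 1.57 and 1.56, and Gimap9 had 0.50 ± 0.39. With no filter, Gimap3 had 0.39, Gimap7 0.28 and Gimap5 0.25. PIR+ KO and PIR+ wt libraries did not overlap for 5 of the 8 members, with PIR+ KO higher each time. The share that was higher in PIR+ KO with no overlap was 5.97% among all genes above 0 and 8.04% among the tested genes. In this contrast limma called 0.44% of the tested genes higher and 0.462% lower. After each library was rescaled by median-of-ratios size factors, which centres the median gene, the fold changes were 1.72 for Gimap4, 1.15 for Gimap8, 0.53 for Gimap1, 0.52 for Gimap6 and 0.40 for Gimap9.

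In PIR- cells, which played no part in the choice, Gimap6 rose in KO libraries and the other tested members did not pass the test. The log2 fold change of Gimap6, KO over wt, was 1.24 ± 0.28 (SE, limma adjusted p = 0.00457, 95% interval 0.68 to 1.80), a ratio of means of 2.57, with all 3 KO libraries above all 3 wt libraries. Of the tested genes, 1.08% were called higher in this comparison. After scaling it was 1.08 (adjusted p = 0.0295), where 1.03% were called higher. The call was lost with no filter (adjusted p = 0.0637), in a fit of these groups alone (0.204), without PIR- KO replicate 2 (0.0713) and without PIR- wt replicate 2 (0.0846). In the 6 libraries whose title and markers field give the same PIR sign, the log2 fold change was 0.72, and so it was in the 7 libraries low in globin. For this comparison both sets hold the same libraries, PIR- KO replicates 2 and 3 and PIR- wt replicate 1. With 1 wt library, the call of Gimap6 was not judged there. Over the other alternatives the adjusted p of Gimap6 ran from 0.000191 to 0.204.

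Gimap4 had a log2 fold change of 0.03 ± 0.28, KO over wt in PIR- cells (adjusted p = 0.976), with a 95% interval from -0.52 to 0.58, and -0.16 after scaling. Gimap1 had 0.22 ± 0.26 (adjusted p = 0.750, interval -0.29 to 0.73), Gimap8 0.17 ± 0.40 (adjusted p = 0.884, interval -0.62 to 0.97) and Gimap9 0.30 ± 0.39 (adjusted p = 0.776, interval -0.48 to 1.08). With no filter, where 0.198% of the genes were called higher, Gimap5 had 1.37 (adjusted p = 0.439), Gimap3 1.30 (0.469) and Gimap7 0.72 (0.749). Besides Gimap6, only Gimap3 had no overlap between KO and wt libraries, on values of 0.5 to 2.9 against 0 to 0.3. Among all genes above 0, 7.89% were higher in PIR- KO with no overlap, and among the tested genes 14.4%.

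The KO effect in PIR+ minus that in PIR- cells was 1.80 ± 0.39 (SE, log2) for Gimap4, 1.08 ± 0.57 for Gimap8, 0.41 ± 0.36 for Gimap1, 0.20 ± 0.56 for Gimap9 and -0.62 ± 0.40 for Gimap6. These differences hold the libraries that chose the family, so they carry no test. With no filter the difference was -1.12 ± 0.65 for Gimap5, -0.90 ± 0.65 for Gimap3 and -0.44 ± 0.68 for Gimap7. The estimate was above 0 for Gimap4, Gimap8, Gimap1 and Gimap9 and below 0 for the other members.

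**Figure D3:**
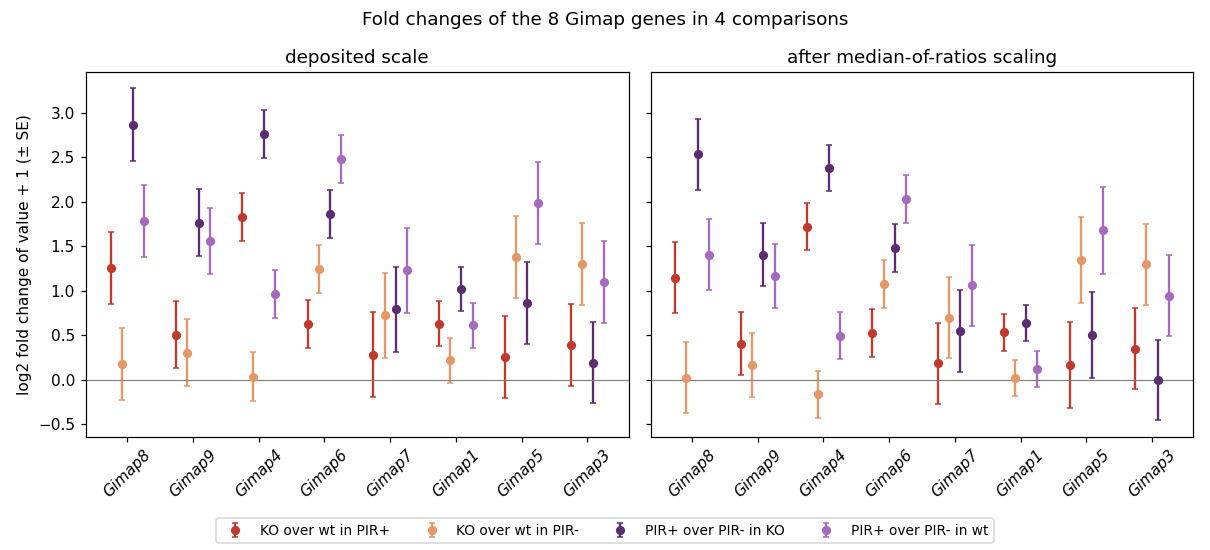
Log2 fold change (± SE) of each Gimap gene in 4 comparisons, from limma fits with no filter on log2(value + 1), with the values as deposited (left) and rescaled by median-of-ratios size factors (right). For Gimap4, KO over wt is 1.83 in PIR+ and 0.03 in PIR- cells in the left panel, and for Gimap6 it is 0.62 in PIR+ and 1.24 in PIR- cells.

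In wt cells, where 3 of the 6 libraries also entered the contrast that chose the family, all 8 members were higher in PIR+ than in PIR- libraries with no overlap between them. Among all genes above 0 this held for 25.8%, and among the tested genes, which include 5 of the members, for 47.6%. Limma called 40.6% of the tested genes higher and 3.72% lower. On the deposited scale the log2 fold change of the median tested gene was 0.51. Gimap6 had the largest log2 fold change, PIR+ over PIR-, of 2.48 ± 0.28 (SE, limma adjusted p = 2.88e-12), and 2.03 after scaling (adjusted p = 1.09e-06), where 11.5% of the tested genes were called higher. Gimap8 rose by 1.78 ± 0.40 (adjusted p = 0.000223; 1.40 and 0.0098 after scaling) in the filtered fit, which it entered through its PIR+ KO libraries. Gimap9, which entered that fit only through PIR+ libraries, was read with no filter, where 16.1% of the genes were called in either direction and 5.1% were called higher after scaling. It rose by 1.56 ± 0.37 (adjusted p = 0.00656; 1.16 and 0.0486 after scaling). In that fit Gimap6 had a limma adjusted p of 1.03e-06 (3.86e-05 after scaling) and Gimap8 one of 0.00444 (0.0317 after scaling). For Gimap8 the log2 fold change was 1.16 both in the 6 libraries with matching PIR labels and in the 7 low in globin. In wt cells both sets hold the same libraries, PIR+ wt replicates 1 and 2 and PIR- wt replicate 1, so its call was not judged there.

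For Gimap4 the log2 fold change was 0.96 ± 0.28 on the deposited scale and 0.49 after scaling, given with no test because its PIR+ wt values are 1 side of the contrast that chose the family. Gimap1 had 0.61 ± 0.26 (adjusted p = 0.0461) and 0.12 after scaling (adjusted p = 0.747), so its call rests on the scale, and it was also lost without any 1 of 6 libraries. With no filter, Gimap5 had 1.98 (adjusted p = 0.00531). It was not called without PIR+ wt replicate 2 or 3 or PIR- wt replicate 1 or 2 (adjusted p 0.0613 to 0.0963). Gimap7 had 1.23 (0.0846) and Gimap3 1.1 (0.112). The authors' deposited table gives, for PIR+ wt against PIR- wt, p-values of 6.94e-06 for Gimap6, 0.0312 for Gimap5, 0.0393 for Gimap8, 0.0523 for Gimap9 and 0.703 for Gimap1.

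In KO cells, PIR+ over PIR-, Gimap6 rose by 1.86 ± 0.28 on the log2 scale (SE, limma adjusted p = 8.76e-08; 1.48 and 0.000162 after scaling). Limma called 22.5% of the tested genes higher in this comparison, and 8.12% after scaling. Gimap8 and Gimap9, which passed the filter through PIR+ libraries, were read from the fit with no filter, where 7.33% of the genes were called higher (3.2% after scaling). In that fit Gimap6 had a limma adjusted p of 7.90e-05 (0.00163 after scaling). Gimap8 rose by 2.86 ± 0.41 (SE, limma adjusted p = 5.88e-05; 2.53 and 0.000401 after scaling) and Gimap9 by 1.76 ± 0.37 (adjusted p = 0.00376; 1.40 and 0.0230 after scaling). Gimap1 rose by 1.02 ± 0.26 (adjusted p = 0.00148) and by 0.63 after scaling (0.0383). The call was lost without PIR- KO replicate 1 (adjusted p = 0.0878), which holds the lowest Gimap1 value, and in the 7 libraries low in globin (0.182). The 6 libraries with matching labels hold PIR+ KO replicate 3 alone of its group, so the call was not judged there. Gimap4 had 2.76 ± 0.28, given with no test because these PIR+ KO libraries chose it. With no filter, Gimap5 had 0.86 (adjusted p = 0.273), Gimap7 0.79 (0.346) and Gimap3 0.19 (0.868). No overlap between PIR+ and PIR- libraries was found for 6 of the 8 members, all but Gimap3 and Gimap7. With PIR+ higher, it was found for 20.7% of all genes above 0 and 35.7% of the tested genes. The 2 PIR+ over PIR- comparisons share no library with each other, but each shares libraries with the KO over wt contrasts.

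**Figure D4:**
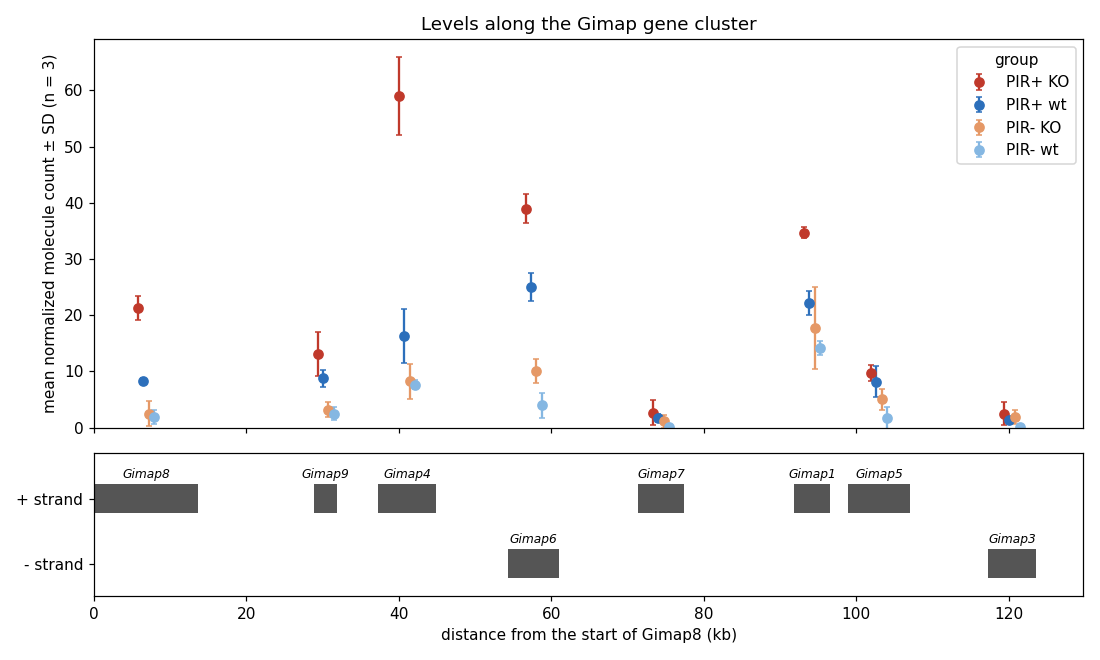
Mean normalized molecule count ± SD (n = 3) of each Gimap gene in the 4 groups (upper panel, vertical axis) over its place in the cluster, in kb from the start of Gimap8 (horizontal axis), with the extent and strand of each gene in the lower panel. Gimap4 and Gimap6, the members with the highest means in PIR+ KO libraries, are neighbours, and Gimap7, between Gimap6 and Gimap1, has means under 3.

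Neighbours within the cluster could differ widely. Gimap7 lies between Gimap6 and Gimap1 and was at most 5.3 in any library, and Gimap9 lies between Gimap8 and Gimap4, whose KO over wt fold changes in PIR+ cells were the 2 largest of the family, yet had 0.50. Outside the family, GENCODE places 32 genes within 200 kb of the outermost members, and 11 of them are rows of the table. Only Repin1, a zinc finger gene, reached the filter, which it would not have done from PIR- libraries alone. It was 19.4, 15.7 and 19.8 in PIR+ KO, 8.2, 17.1 and 16.9 in PIR+ wt, 5.3, 11.5 and 10.3 in PIR- KO and 6.4, 3.9 and 6.2 in PIR- wt libraries. Repin1 was called for PIR+ over PIR- in KO (1.0, limma adjusted p = 0.0132) and in wt cells (1.17, adjusted p = 0.00204), in neither after scaling, and for KO over wt in neither subset. Tmem176b, 5.5 to 12.9 in PIR+ KO and 8.2 to 17.1 in PIR+ wt libraries, overlapped between those groups, as did Tmem176a, Lrrc61 and Gm5111. Sspo, Atp6v0e2, Rarres2, AI854703 and 1600015I10Rik stayed at 2.0 or less in every library, and Zfp775 at 4.4 or less.

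Over the 12 libraries, pairs of the 5 tested members correlated at Pearson r = 0.711 to 0.897 on the log2 scale, a description that shares the 4 group levels and the scale of each library. Gimap8 (0.896) and Gimap1 (0.889) were closer to Gimap4 than were Gimap6 (0.814) and Gimap9 (0.795). The 6 of 4541 other tested genes most like Gimap4 were Eml4 (r = 0.969), Fchsd2 (0.950), Map2k4 (0.933), Lcp2 (0.931), Hlf (0.930) and Nob1 (0.925). Eml4, which encodes a microtubule-binding protein, was 44.6 to 46.0 in PIR+ KO, 25.0 to 28.6 in PIR+ wt, 11.7 to 17.9 in PIR- KO and 13.9 to 14.8 in PIR- wt libraries. Lcp2 encodes the adaptor SLP-76 of T-cell receptor signalling and was 10.3 to 15.8 in PIR+ KO, 3.2 to 5.9 in PIR+ wt, 0.5 to 2.2 in PIR- KO and 0 to 1.1 in PIR- wt libraries. Hlf encodes a transcription factor known from stem cells, and it was 14.2 to 21.2 in PIR+ KO, 4.1 to 9.5 in PIR+ wt, 0 to 1.7 in PIR- KO libraries, and was listed at 0 in PIR- wt libraries. For all 3, as for Gimap4, PIR+ KO libraries lay above all others, and they were picked for that likeness.

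Because Gimap messages are abundant in mature T and NK cells, markers of cell types that a sort could hold were read beside them. Of 18 T-lineage and thymus-seeding genes, 5 were tested, and Cd3e, Cd3d, Bcl11b, Thy1 and Il2ra were listed at 0 in all 12 libraries. Their summed values were 90.8 to 129.6 in PIR+ KO and 172.3 to 200.3 in PIR+ wt libraries, and 46.2 to 71.8 in PIR- KO and 39.3 to 43.5 in PIR- wt libraries. Ccr9, a chemokine receptor of thymus-seeding cells, fell in PIR+ KO cells, at 15.8, 25.5 and 23.6 against 53.9 to 74.9 in PIR+ wt libraries (log2 fold change -1.57 ± 0.34 SE, limma adjusted p = 0.00226). Cd7, an early T and NK surface protein, was 0 to 0.5 in PIR+ KO and 14.9 to 21.6 in PIR+ wt libraries (-4.08 ± 0.64). Cd7 reached the filter only through those PIR+ wt libraries, so its difference is given with no test. The other 3 tested genes of the list were not called. Ccr9 and Cd7 on one side and Gimap4 on the other therefore differed in opposite directions between PIR+ KO and PIR+ wt libraries. Notch1, the receptor of T-lineage commitment, was called higher in PIR- KO than in PIR- wt libraries, at 27.6 against 13.7 (0.93, adjusted p = 0.0115).

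Of 12 NK and innate lymphoid genes only Id2 was tested. Their summed values were 23.1 to 47.2 in PIR+ KO and 59.0 to 112.4 in PIR+ wt libraries, and no more than 5.9 in PIR- libraries. Id2, an inhibitor of E proteins needed for innate lymphoid cells, was 15.2 to 28.1 in PIR+ KO and 38.1 to 73.0 in PIR+ wt libraries (-1.39 ± 0.38, limma adjusted p = 0.0482), a call not kept after scaling (0.0607). Of 14 B-lineage genes, 12 were tested, and 11 fell in PIR+ against PIR- cells in KO, where 2.97% of all tested genes were called lower, and 12 fell in wt, where 3.72% were. Apart from Cd79b, Rag1 and Rag2, the tested genes reached the filter only through PIR- libraries, which favoured these calls. The sums of the 14 genes were 43.1 to 63.7 in PIR+ KO, 46.7 to 81.3 in PIR+ wt, 853 to 1332 in PIR- KO and 980 to 1293 in PIR- wt libraries. Between PIR+ and PIR- libraries, the Gimap family was thus lower where B-lineage messages were high. Within PIR- KO libraries this did not hold, as both sums rose from replicate 1 to replicate 3. Between KO and wt in PIR- cells none of the 12 was called, against 1.3% of all tested genes. In PIR+ cells 2 were called lower in KO, against 0.462% of all tested genes: Cd79a, a B-cell receptor chain, was 0 to 1.0 in PIR+ KO and 2.7 to 8.9 in PIR+ wt libraries (-2.33, limma adjusted p = 1.61e-10; 2.62e-05 after scaling), and Vpreb3 averaged 0.4 in KO and 2.17 in wt (-1.11, adjusted p = 0.0467; 0.136 after scaling). The part of cell mixture in the Gimap values was not tested.

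Gimap genes are also expressed by endothelial cells. Of 13 endothelial genes, 3 were tested, and their sums were 147.5 to 206.1 in PIR+ KO, 79.9 to 99.1 in PIR+ wt, 56.0 to 79.3 in PIR- KO and 27.9 to 73.0 in PIR- wt libraries, the same order of group means as the Gimap sums. Egfl7, which progenitors also express, made the largest part in the PIR+ libraries: it was 119.0 to 168.1 in PIR+ KO and 56.5 to 73.9 in PIR+ wt libraries (1.06 ± 0.21, limma adjusted p = 0.000482), and 39.2 to 57.3 in PIR- KO and 16.3 to 24.1 in PIR- wt libraries (1.28 ± 0.21, adjusted p = 9.65e-06). Eng, a receptor that endothelial cells share with progenitors, was 14.7 to 19.8 in PIR+ KO and 11.4 to 13.8 in PIR+ wt libraries, and 4.0 to 13.2 in PIR- KO and 3.7 to 5.4 in PIR- wt libraries. It was called higher in PIR+ than in PIR- cells in KO (1.11, limma adjusted p = 0.00680; 0.0849 after scaling) and in wt (1.27, adjusted p = 0.00118; 0.0434 after scaling), and in neither KO over wt comparison. Eng would not have reached the filter from PIR- libraries alone. Pecam1, an adhesion protein of vessels and blood cells, was 4.6 to 12.4 over the 12 libraries and was called in no comparison. Kdr was listed at 0 in all 6 PIR+ libraries, Cdh5 was at most 1.8 there and Tek at most 1.5. Other untested genes of the list were low too, but not all alike. Emcn was 1.5 to 3.9 in PIR+ KO and 0 to 1.4 in PIR+ wt libraries. Tie1 was 0.5 to 1.2 in PIR+ KO and 0 in PIR+ wt libraries, so neither overlapped. Plvap leaned the other way, at 0.5 to 1.8 in PIR+ KO and 1.4 to 2.6 in PIR+ wt libraries. Lyve1 was 4.8 in PIR+ KO replicate 1. An endothelial share was not tested. PIR- wt replicate 3 had Cdh5 at 7.0 and Lyve1 at 10.1, and its Gimap sum was 34.2, where replicates 1 and 2 of that group were at 34.0 and 27.9.

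Stem and multipotent progenitor genes were higher in PIR+ cells, 4 of 5 tested in KO and 5 of 5 in wt, also after scaling, where 22.5% of all tested genes were called higher in KO and 40.6% in wt (8.12% and 11.5% after scaling). Hlf reached the filter only through PIR+ KO libraries, and Meis1 and Mycn only through PIR+ libraries. The filter thus favoured their calls, and these counts are no independent support. Cd34 and Cd48 reached it from PIR- KO libraries alone. In PIR- cells, where Gimap6 rose in KO libraries, Cd34 (19.8 against 6.03, 1.59 ± 0.21, limma adjusted p = 6.10e-08) and Cd48 (18.4 against 4.37, 1.92 ± 0.30, adjusted p = 3.81e-06) were also higher in KO than in wt libraries. So were 3 of 5 tested myeloid genes, namely Mpo (22.5 against 6.83), Csf1r (6.03 against 0.633) and Tyrobp (10.6 against 3.47), where 1.08% of all tested genes were called higher. The sum of the myeloid list was 46.6 to 77.2 in PIR- KO and 14.3 to 37.6 in PIR- wt libraries, and that of the stem list 42.5 to 50.7 in PIR- KO and 11.5 to 20.2 in PIR- wt libraries. Between PIR+ KO and PIR+ wt libraries, where Gimap4 stood apart, the stem sums did not overlap either, at 268.3 to 330.8 in KO and 195.5 to 236.6 in wt. Of that list, Cd48 was called higher in PIR+ KO cells (31.1 against 12.7, 1.29 ± 0.30, adjusted p = 0.00602), a call lost after scaling (0.0557). Whether these messages and the Gimap messages come from the same cells was not tested.

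Members of the Bcl2 family that bind Gimap proteins and the Atg8 proteins that bind Gimap6 were read as partners. Of 8 Bcl2 family genes 4 were tested, and none was called between KO and wt in either subset (median log2 fold change 0.37 in PIR+ and 0.10 in PIR- cells, against 0.09 and 0.20 over all tested genes). Of all tested genes, 0.903% were called in that comparison in PIR+ and 1.3% in PIR- cells. Between PIR subsets in KO cells 3 were higher and 1 lower in PIR+ libraries, and in wt cells 2 were higher and 1 lower, against 22.5% of all tested genes called higher and 2.97% lower in KO, and 40.6% higher and 3.72% lower in wt. The lower one was Bcl2l1, which encodes the survival protein Bcl-xL: it was 6.1, 8.8 and 15.2 in PIR+ KO libraries against 19.6, 18.5 and 27.2 in PIR- KO libraries (-1.11 ± 0.29 SE, limma adjusted p = 0.00229), and 5.7 to 9.2 in PIR+ wt against 17 to 23.9 in PIR- wt libraries (-1.36 ± 0.29, adjusted p = 9.82e-05). Bcl2l1 was also called lower after scaling, while the calls of Mcl1, Bad and Bid, which were higher, were lost. Bcl2l1 would not have reached the filter from PIR+ libraries alone, nor Bad and Bid from PIR- libraries alone. Bcl2l1 thus had the opposite order to the Gimap genes between PIR+ and PIR- cells.

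Of 5 Atg8 genes 4 were tested, and none was called between KO and wt in either subset. Of all tested genes, 0.903% were called there in PIR+ and 1.3% in PIR- cells, so none of 4 says little. For PIR+ over PIR-, 1 of the 4 was called higher in KO and 2 in wt, near the 22.5% and 40.6% of all tested genes. Gabarapl1, named below, would not have reached the filter from PIR- libraries alone. Gabarapl1 was higher in PIR+ cells, at 11.3 to 19.0 in PIR+ KO against 4.2 to 9.8 in PIR- KO libraries (1.03 ± 0.32 SE, limma adjusted p = 0.0120) and 11.8 to 19.7 in PIR+ wt against 4.2 to 7.0 in PIR- wt libraries (1.43 ± 0.32, adjusted p = 0.000245). After scaling, only the difference in wt cells was called (adjusted p = 0.0155). Gabarap was called in wt cells alone (61.2 in PIR+ against 31.7 in PIR-, adjusted p = 0.000629), not after scaling.

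Other families of immunity-related GTPases, induced by interferon, were read for comparison. Of 17 IRG, GBP and Mx genes only Irgm1 and Gbp7 were tested. Neither was called between KO and wt in PIR+ or PIR- cells, where 0.903% and 1.3% of all tested genes were called. For PIR+ over PIR-, 22.5% of all tested genes were called higher and 2.97% lower in KO (8.12% and 7.51% after scaling). In wt these shares were 40.6% and 3.72% (11.5% and 11% after scaling). Irgm1 would not have reached the filter from PIR- libraries alone. Irgm1, a regulator of autophagy, was higher in PIR+ cells, at 10.3 to 18.5 in PIR+ KO against 4.7 to 10 in PIR- KO libraries (1.01 ± 0.33 SE, limma adjusted p = 0.0163), and Gbp7 was lower there, at 10.6 to 18.8 against 17.3 to 27.2 (-0.74 ± 0.27, adjusted p = 0.0338). After scaling, Irgm1 was not called in KO cells (adjusted p = 0.155) and Gbp7 was (0.00117). In wt cells Irgm1 was called higher (1.44 ± 0.33, adjusted p = 0.000282; 0.0158 after scaling), and Gbp7 was called lower after scaling alone (adjusted p = 0.0607 before and 0.00107 after). Among the untested genes, chosen after their values were seen, Ifi47 was 9.1 to 12.7 in PIR+ KO and 5.4 to 8.9 in PIR+ wt libraries, and 0.7 to 3.2 in PIR- libraries, so its PIR+ groups did not overlap. Tgtp2 did not overlap between them either, at 1.5 to 3.0 in PIR+ KO and 0.3 to 0.7 in PIR+ wt libraries. The summed values of these 17 genes were 47.9 to 56.4 in PIR+ KO and 42.0 to 55.4 in PIR+ wt libraries, which overlapped, where the summed Gimap values did not.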

How the data were processed

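RNA was measured in 12 libraries of 100 sorted cells each. Per the labels, the authors used TopHat2, build mm10 and DESeq2; their versions and the counting tool are not given in these sources. The deposited values, a signal here, are molecule counts that the authors scaled per library and rounded to 1 decimal. Between 91.4% and 94.2% of low values lay within 0.055 of a whole number of molecules, so whole counts were not claimed, and no interval from counts is given. The authors also deposited p-values for PIR+ wt against PIR- wt, whose header does not say whether they are adjusted. From the deposited values, limma 3.58.1 (R 4.3.3, trended prior, 4 group means) was fitted on log2(value + 1) for genes with at least 10 in at least 3 libraries. P-values were Benjamini-Hochberg adjusted over all genes tested, and the fit was checked on simulated data. A gene listed at 0 got no fold. Alternatives were median-of-ratios scaling, pseudocounts of 0.1 and 5, a filter at 3 or none, only the groups compared, the replicate number as a block, the labelled day as a term, 6 libraries with matching labels, and each library left out. Leaving out the 5 globin-rich libraries, and the unfiltered fits of Gimap3, Gimap5 and Gimap7 under scaling or with a library left out, were chosen after seeing the data. The members and gene lists were chosen with earlier results of these data known. Named genes are all 8 members, up to 4 called genes per list with the largest fold change, annotated genes within 200 kb, the 6 genes with the highest r with Gimap4, and marker genes named for their absence or their level. Locations and promoters came from GENCODE M21 and RefSeq (8 of 8 members matched). Protein sequences were not used here. Plots used matplotlib 3.10.9 under Python 3.11.15.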

Additional observations from a re-analysis of the deposited data

How the results depend on the processing

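Of 447 alternative values over 24 results of single members, 405 had the direction and the call of the main value, 29 lost the call, 13 changed sign and 0 gained one. The tally includes Gimap4 for PIR+ over PIR- in KO and in wt cells, where its values chose the family. It is therefore no support for Gimap4 in those comparisons. All 13 sign changes were in uncalled results. For Gimap4, KO over wt in PIR- cells was -0.16 after scaling and -0.19 to 0.33 with a library left out. For Gimap8 it was -0.33 to 0.49 with a library left out, and -0.20 in the 6 libraries with matching labels and without the globin-rich libraries. Those sets hold the same PIR- libraries, with PIR- wt replicate 1 alone of its group. Their counts of called genes in comparisons with PIR- wt also rest on that 1 library. With a library left out, Gimap1 ran from -0.021 to 0.59 and Gimap9 from -0.021 to 0.59 for KO over wt in PIR- cells. Gimap3, PIR+ over PIR- in KO, was -0.0025 after scaling and -0.26 to 0.57 with a library left out. For Gimap4, PIR+ over PIR- in wt was 0.49 after scaling and 0.81 to 1.22 with a library left out. KO over wt in PIR+ cells stayed between 1.57 and 1.98 for Gimap4 under all alternatives run. Counts of called genes moved more. For PIR+ over PIR- in KO the 1158 calls became 710 after scaling (369 higher and 341 lower, against 1023 and 135), 576 without the globin-rich libraries and 662 to 1418 with a library left out (the lowest without PIR+ KO replicate 3, and 720 where PIR- KO replicate 1 was dropped). In wt the 2015 calls became 1025 after scaling (524 and 501, against 1846 and 169), 1053 in the 6 libraries with matching labels, 700 without the globin-rich libraries and 1320 to 2083 with a library left out (1320 without PIR+ wt replicate 3). For KO over wt in PIR- cells the 59 calls became 31 with no filter, 28 with only the groups compared, 105 in the 6 libraries, 35 without the globin-rich libraries and 33 to 88 with a library left out (37 and 33 where PIR- KO replicates 2 and 3 were dropped in turn). The replicate block gave 209 calls there. Same-numbered libraries deviated together at r = -0.103 to 0.162, so the numbers were not taken to pair the libraries. The cause of these shifts was not tested. Levels of a few molecules limit Gimap3 and Gimap7 throughout.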
